A study of Mus musculus with 21 samples.

Results

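The collagen genes are the genes whose symbols have the form Col, a number, a and a number. All symbols of this form were taken from the deposited gene list, with no use of measured values, which gave 44 of 32285 genes. Their mRNA was counted in single cells of mouse melanoma and lung. The hosts were mT/mG mice, which carry the red fluorescent membrane protein tdTomato in every cell and received no Cre. MT-ret melanoma fragments without tdTomato were transplanted under the skin of male and female mice 8 to 10 weeks old, the primary tumors were resected, and the lungs were followed for metastases. Live tdTomato+ cells, or tdTomato+ CD45- cells, made up the tumor microenvironment (TME) libraries of primary tumors and of lung metastases. Tumor-free mT/mG lungs gave the unchallenged lung libraries, and transplanted melanoma cells of either site the MM libraries. Which gate a library had was not given in the sources used here.

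Collagens are proteins of 3 alpha chains wound into a triple helix, and each gene encodes 1 kind of chain. Fibril-forming chains build the rope-like fibers of connective tissue, and type IV chains build the sheet of the basement membrane under endothelium and epithelium. Other families lie along fibrils, anchor sheets to stroma, span the cell membrane or, as multiplexins, carry sugar chains in basement membranes and can release endostatin-like fragments. Fibroblasts are the main source of fibrillar collagen, and pericytes, the contractile cells wrapped around capillaries, share the vascular basement membrane with the endothelium. By family, 11 of the genes are fibril forming, 6 form the basement membrane network, 7 beaded filaments, 3 short-chain networks and 1 anchoring fibrils. Another 9 belong to the FACIT group, which sits on fibril surfaces, 4 are transmembrane, 2 are multiplexins, and Col26a1 was placed in none of these.

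Col4a1 and Col4a2, the chains of the most common type IV collagen, led the endothelial results and are neighbors read in opposite directions. In GENCODE vM21 on GRCm38, Col4a1 lies on the minus strand at chr8:11198423-11312826 and Col4a2 on the plus strand at chr8:11312805-11449287, so that the genes share 22 bases. Of the 44 members, 35 have a promoter window of 300 bases (250 before and 50 from the gene start) in the RefSeq tables for GRCm38.p6. The windows of this pair, chr8:11312777-11313076 on the minus strand and chr8:11312555-11312854 on the plus strand, share 78 bases, shown in capitals below. Both genes start within that stretch and are read through it in opposite directions, so it is made up of the first 50 bases of each gene.
Col4a1: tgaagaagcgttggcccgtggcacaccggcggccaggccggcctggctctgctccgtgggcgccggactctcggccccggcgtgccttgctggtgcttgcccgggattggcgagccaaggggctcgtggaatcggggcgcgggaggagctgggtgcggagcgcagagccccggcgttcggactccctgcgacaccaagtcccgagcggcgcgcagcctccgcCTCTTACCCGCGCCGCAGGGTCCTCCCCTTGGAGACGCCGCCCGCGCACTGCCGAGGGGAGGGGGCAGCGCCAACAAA
Col4a2: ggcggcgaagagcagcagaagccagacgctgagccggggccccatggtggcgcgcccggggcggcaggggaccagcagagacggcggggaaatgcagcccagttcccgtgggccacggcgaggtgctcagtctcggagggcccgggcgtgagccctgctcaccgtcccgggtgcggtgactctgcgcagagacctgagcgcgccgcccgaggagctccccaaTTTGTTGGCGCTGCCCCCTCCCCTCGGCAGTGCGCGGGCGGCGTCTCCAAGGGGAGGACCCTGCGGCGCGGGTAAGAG
Both windows hold the CCAAT box (CCAAT) and the GC box (GGGCGG), searched on both strands. CCAAT was found in 13 of the 38 windows of these members and in 37.4% of all 32851 windows, GGGCGG in 23 and 35.7%, and the TATA box (TATAAA) in 5 and 13.6%. A match is a description of letters only. Col4a3 with Col4a4, 71 bases apart on chromosome 1, and Col4a5 with Col4a6, 1308 bases apart on chromosome X, are also arranged head to head, and the 44 members lie on 15 chromosomes.

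The counts covered 110283 barcodes, and 5 of 24 library names held the same barcodes and counts as another name. Each such library was taken once, which left 100359 cells in 16 libraries of 303 to 30419 cells and 1777036 to 60339415 UMIs. A UMI stands for 1 captured RNA molecule read near its 3' end, so levels are given as CPM, the UMIs of a gene per 1000000 UMIs of a cell type in a library, with no scaling to gene length, and capture can differ between genes. The study states more cells than were deposited, and the difference was not analysed here. No doublet caller was run, and up to 227 barcodes were shared between 2 libraries. Cells were clustered without the collagen genes and named from markers that include no collagen. This gave 4600 fibroblasts, 142 pericyte-like, 140 smooth muscle-like and 306 mesothelial-like cells, 5510 endothelial, 12122 epithelial, 50355 melanoma and 23936 leukocyte cells, and 1732 cells stayed unnamed. An endothelial cluster (Car4, Prx, Ednrb, 1304 cells) and a mesenchymal subcluster (Fbn1, Cilp, Postn, 212 cells) are described apart, by a rule set with the clusters in view. Among the 10 leading genes of each, 1 was a marker of another type and 0 of its own. They raised 10 of 13 endothelial and 11 of 13 fibroblast markers 2-fold, so the rule does not show that they are other cell types. The subcluster led by Ccl11 and Lum, at 2 against 2, was kept. All fibroblast libraries had at least 1 UMI of 12 or 13 of the 13 fibroblast markers, and all endothelial libraries of the 13 endothelial markers. Detection is a weak check, since endothelium of some libraries also had all 13 fibroblast markers. Raised 2-fold over all other cells were 6 and 7 of the 13 in the 2 largest primary tumor fibroblast subclusters. Lung fibroblast subclusters raised 10 to 13, but they also raised lists of other types. The one led by Scn3a and Inmt (704 cells) raised 4 of 5 neutrophil genes. That led by Dpt and Clec3b (523 cells) raised 5 of 9 macrophage genes, and that led by Gas1 and Adh1 (522 cells) 6 of 6 ciliated genes. That led by Mmp3 and Scara5 (320 cells) raised 6 of 6 alveolar type 2 (AT-2) and 5 of 5 neutrophil genes. The tumor subcluster led by Tnc raised 4 of 11 pericyte genes. Only libraries with at least 20 cells of a type were used, and since some libraries pool mice, p-values measure the spread between libraries. By the library names used, primary tumor and metastasis libraries 1-3, 5 and 6 came from shared mice, while library 4 came from different ones. The counts of TME libraries 5 and 6 were also deposited under names with other mouse numbers, which again matched between both sites. Those of metastasis library 6 had a further name, of melanoma cells and another mouse. The mice of TME libraries 5 and 6, and the sort of metastasis library 6, are thus known from names that differ. The library names give run 1 for libraries 1 and 1-3, run 2 for library 4 and run 3 for libraries 5 and 6.

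Among the named cell types, collagen made up the largest part of mRNA in pericyte-like cells and fibroblasts of the primary tumor. In pericyte-like cells of the primary tumor, 2.99 and 4.32% of UMIs were collagen (mean 3.66% ± 0.934, SD, n = 2), against 1.89% in the 1 metastasis library. In fibroblasts the share was 2.29, 2.97 and 1.65% in primary tumor libraries 4, 5 and 6 (2.30% ± 0.659, SD, n = 3) and 0.662, 1.17 and 0.316% in unchallenged lung libraries 4, 5 and 6 (0.715% ± 0.428, SD, n = 3). The only metastasis library with enough fibroblasts, library 5 with 100 cells, had 0.886%. Every primary tumor library was thus above every lung library, and the metastasis library lay among the lung libraries. Mesothelial-like cells, which line the pleura, had 1.44 and 2.66% in 2 metastasis libraries and 0.160% in lung library 6. Smooth muscle-like cells of metastasis library 5 had 0.682%. Endothelium had 0.663% ± 0.215 in the primary tumor, 0.281% ± 0.146 in metastasis and 0.0833% ± 0.0118 in unchallenged lung (SD, n = 4 each). These endothelial groups did not overlap, with 0.452 to 0.960%, 0.139 to 0.427% and 0.0731 to 0.0967%. Sorted melanoma cells had 0.0692 and 0.109% in metastasis and 0.0736 and 0.119% in the primary tumor. Epithelium had 0.0521% ± 0.0116 in metastasis and 0.0281% ± 0.00375 in unchallenged lung (SD, n = 3 each). Leukocytes, which make little fibrillar collagen and give the level that free RNA can reach, had means of 0.0207% in metastasis, 0.0160% in the primary tumor and 0.00728% in unchallenged lung. No test was run on these shares, and fewer RNA molecules of other genes and more collagen per cell cannot be told apart in them.

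**Figure D1:**
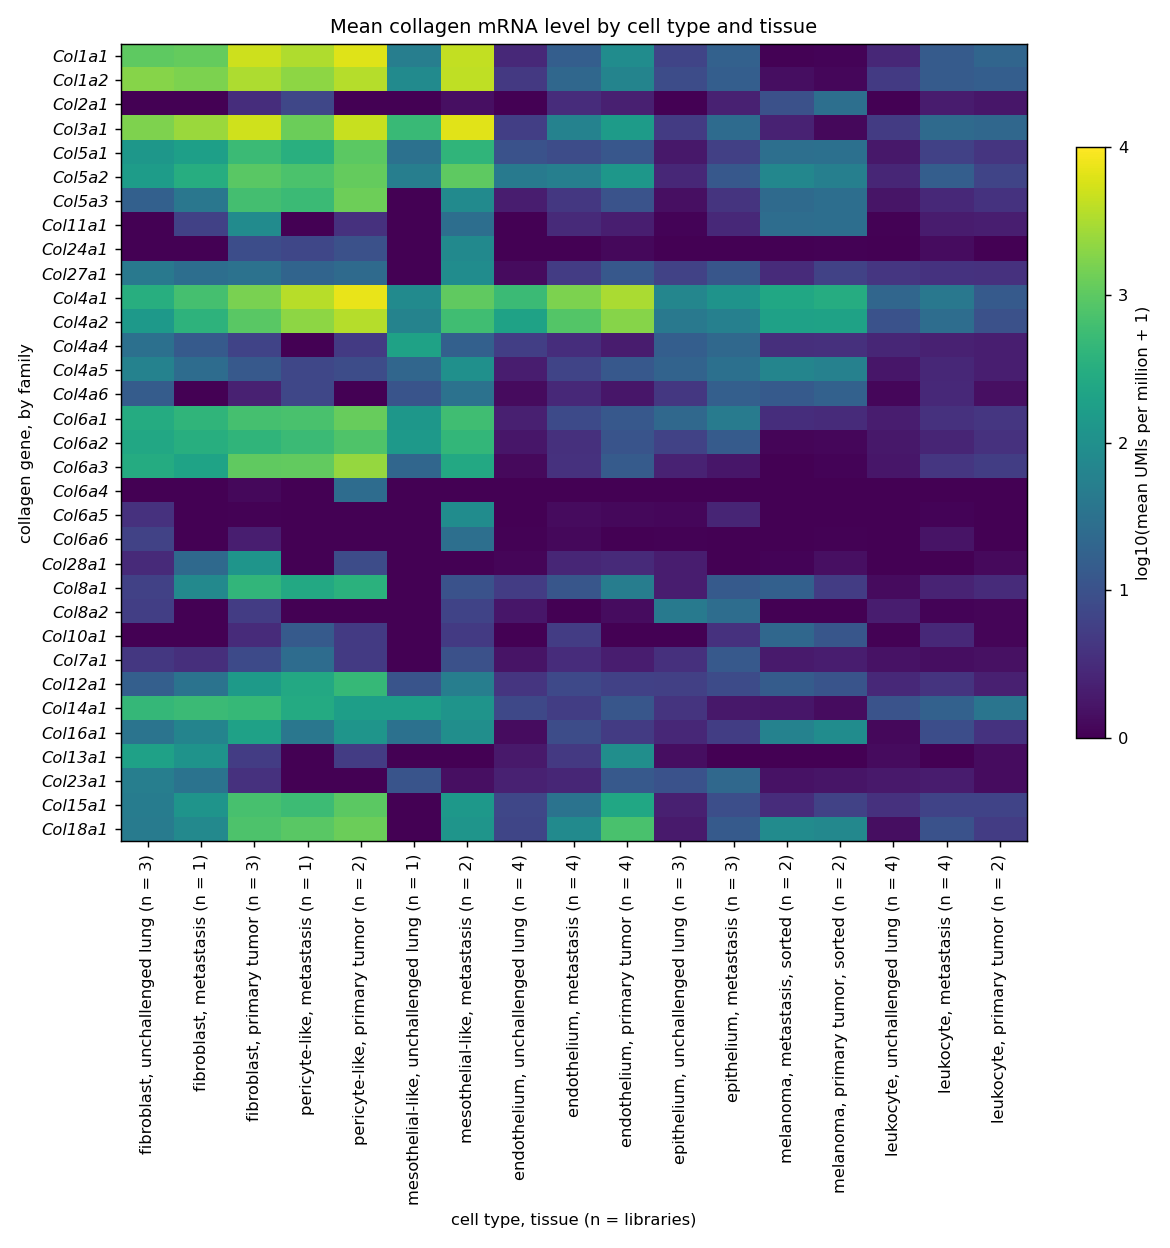
Heat map of the 33 collagen genes that reached 20 CPM in at least 1 cell type. Rows are genes by family, columns are cell types in each tissue with the number of libraries, and color is log10 of the mean CPM + 1. Col4a1 and Col4a2 are bright from pericyte-like cells to endothelium, whereas Col1a1, Col1a2 and Col3a1 are bright in mesenchymal cells and Col8a2 in epithelium.

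The mix of families differed between cell types and, in some of them, between tissues. Fibril-forming chains held 67.3% ± 0.761 of the collagen UMIs of primary tumor fibroblasts, 67.3% ± 8.11 of those of lung fibroblasts (SD, n = 3 each) and 64.8% in metastasis. In endothelium the basement membrane network held 75.9% ± 3.53 in the primary tumor, 89.6% ± 4.77 in metastasis and 87.7% ± 6.22 in lung (SD, n = 4 each). Pericyte-like cells stood between, with 29.8% ± 1.66 basement membrane and 48.8% ± 4.10 fibril-forming chains in the primary tumor (SD, n = 2). Multiplexins held 14.3% ± 2.13 of the collagen UMIs of primary tumor endothelium, 3.25% ± 2.03 in metastasis and 1.5% ± 0.896 in lung (SD, n = 4 each). In fibroblasts multiplexins held 6.35% ± 1.15 in the primary tumor and 1.27% ± 0.197 in lung (SD, n = 3 each). In mesothelial-like cells fibril-forming chains held 80.5% ± 5.39 in metastasis (SD, n = 2) and 44.7% in the 1 lung library, and FACIT chains 1.36% ± 0.393 and 13.2%. Melanoma cells of both sites resembled neither fibroblasts nor endothelium, with 58.6 and 59.6% basement membrane, 17.8 and 17.6% fibril-forming and 9.58 and 12.3% FACIT chains as means of metastasis and primary tumor.

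**Figure D2:**
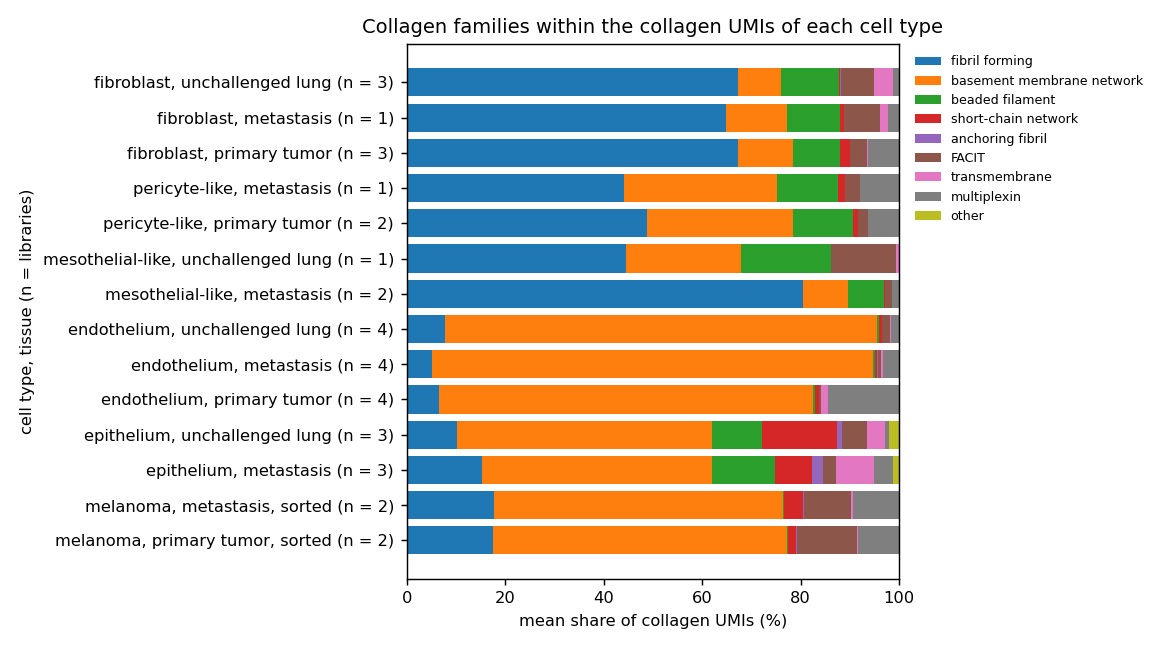
Mean share of each collagen family in the collagen UMIs of a cell type and tissue, as stacked bars from 0 to 100%, with the number of libraries. Fibril-forming chains fill 67.3% of the bars of fibroblasts in the primary tumor and in lung, and the basement membrane network 75.9 to 89.6% of the endothelial bars.

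In fibroblasts, the comparison of primary tumor with unchallenged lung (3 libraries each) found 16 of the 26 collagen genes tested changed, 13 higher and 3 lower. Over all 11251 genes tested, 10.4% were called, 4.69% higher and 5.71% lower. The median log2 change of the 26 was 2.03, against -0.12 over all genes. The genes that rose came from 6 families, and the 3 that fell were the membrane-spanning Col13a1 and Col23a1 and the type IV chain Col4a5. The test was edgeR's quasi-likelihood test on summed UMIs with Benjamini-Hochberg adjustment over all genes, and it gives all adjusted p-values below.

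Among fibril-forming chains, Col5a3, a minor chain that joins type V fibrils, changed most of those detected on both sides. Its fibroblast level was 587, 808 and 525 CPM in primary tumor libraries 4, 5 and 6 and 18.3, 22.1 and 7.72 in lung libraries 4, 5 and 6. These groups were far apart, with a log2 change of 5.45 (SE 0.52, adjusted p = 0.00341). Col11a1, a chain of type XI collagen best known from cartilage, had no UMI in any of the 3 lung libraries and 132, 95.4 and 24.5 CPM in the primary tumor. Taking 3 UMIs per library as the limit of a count of 0, it was at least 16.8-fold higher (adjusted p = 0.0185). Col1a1, the main chain of type I collagen, had 4949, 5597 and 4139 CPM in the primary tumor and 788, 1750 and 496 in lung. It too was separate in every library and higher by 2.30 (SE 0.54, adjusted p = 0.0383). Col5a2 rose by 2.60 (SE 0.54, adjusted p = 0.0289) and Col5a1 by 2.09 (SE 0.51, adjusted p = 0.0419), both chains of the type V collagen that seeds thin fibrils.

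Col1a2 and Col3a1 did not pass. In simulated data the fibroblast fit recovered 0 of 59 true 2-fold and 16 of 63 true 4-fold changes. A gene that did not pass is therefore not shown to be unchanged. Col1a2, the partner chain of Col1a1, had 3268, 4327 and 1987 CPM in the primary tumor and 1128, 3551 and 926 in lung (log2 change 0.79, adjusted p = 0.420). Lung library 5 lay inside the primary tumor range. Col3a1, the only chain of type III collagen, had 5166, 7319 and 3151 against 1577, 2759 and 632 (1.68, adjusted p = 0.109). Col27a1 had values of -0.24 (adjusted p = 0.795), with 19.4 to 42.9 in the primary tumor and 20.6 to 73.0 in lung.

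Network and basement membrane collagens rose as well. Col8a1, the chain of a hexagonal short-chain network found around vessels, had 482, 496 and 285 CPM in the primary tumor and 0, 11 and 3.60 in lung. Its log2 change was 6.28 (SE 0.69, adjusted p = 0.00526), the highest of the members seen in both tissues. Col18a1, the multiplexin that holds endostatin, had 919, 749 and 592 in the primary tumor and 62.1, 61.9 and 13.9 in lung. The groups were clearly apart, with a log2 change of 4.15 (SE 0.62, adjusted p = 0.0116). Its relative Col15a1 had 782, 777 and 482 against 7.30, 105 and 27.8, a change of 3.80 (SE 0.80, adjusted p = 0.0293). For the type IV pair, Col4a1 had 1263, 2012 and 1392 against 427, 370 and 168 (2.33, SE 0.43, adjusted p = 0.0218). Col4a2 had 754, 1221 and 853 against 241, 130 and 53.8 (2.83, SE 0.55, adjusted p = 0.0236). In both chains each primary tumor library exceeded each lung library.

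Fibril-associated and beaded-filament chains were less uniform. Col28a1, grouped here with the beaded filaments because of its von Willebrand factor domains, had 163, 114 and 83.5 CPM in the primary tumor and 0, 5.52 and 0.515 in lung (log2 change 6.11, SE 0.81, adjusted p = 0.00778). Col12a1, a FACIT chain found on fibrils of tendon and ligament, had 89.2, 291 and 77.7 against 18.3, 18.8 and 8.24 (3.47, SE 0.66, adjusted p = 0.0226). Both genes were separate in all libraries, and primary tumor library 5 was far above the other two for Col12a1. Col16a1, another FACIT chain, had 187, 243 and 141 against 29.2, 55.2 and 17.2 (2.52, SE 0.49, adjusted p = 0.0239). Col14a1, the FACIT chain with the highest lung level, had 601, 465 and 358 against 259, 911 and 196 (0.07, adjusted p = 0.953), so the groups overlapped. Of the type VI chains, which form beaded filaments around cells, none passed by edgeR. Col6a3 had 1020, 1490 and 687 against 489, 282 and 88.1 (1.98, adjusted p = 0.0775). DESeq2 called it (adjusted p = 0.00820), as it did Col3a1 (adjusted p = 0.0219). Col6a1 and Col6a2 had changes of 1.28 (adjusted p = 0.189) and 0.77 (adjusted p = 0.400).

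Col13a1, a membrane collagen of cell contacts, was lower in the primary tumor. It had 0, 4.77 and 7.57 CPM in primary tumor fibroblasts and 456, 87.3 and 38.6 in lung fibroblasts (log2 change -5.05, SE 1.12, adjusted p = 0.0330). Col23a1, a second membrane collagen, had 1.44, 2.38 and 4.45 against 94.9, 44.2 and 13.4 (-3.69, SE 0.80, adjusted p = 0.0316). Col4a5, a chain of the specialized basement membranes of kidney and lung, had 11.5, 9.54 and 14.9 against 65.7, 79.5 and 32.2 (-2.16, SE 0.44, adjusted p = 0.0268). For all 3 genes the lowest lung library was above the highest primary tumor library. Its partners Col4a4 (-2.78, adjusted p = 0.167) and Col4a6 (-2.79, adjusted p = 0.101), and the hemidesmosome collagen Col17a1 (-3.04, adjusted p = 0.187), did not pass.

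**Figure D3:**
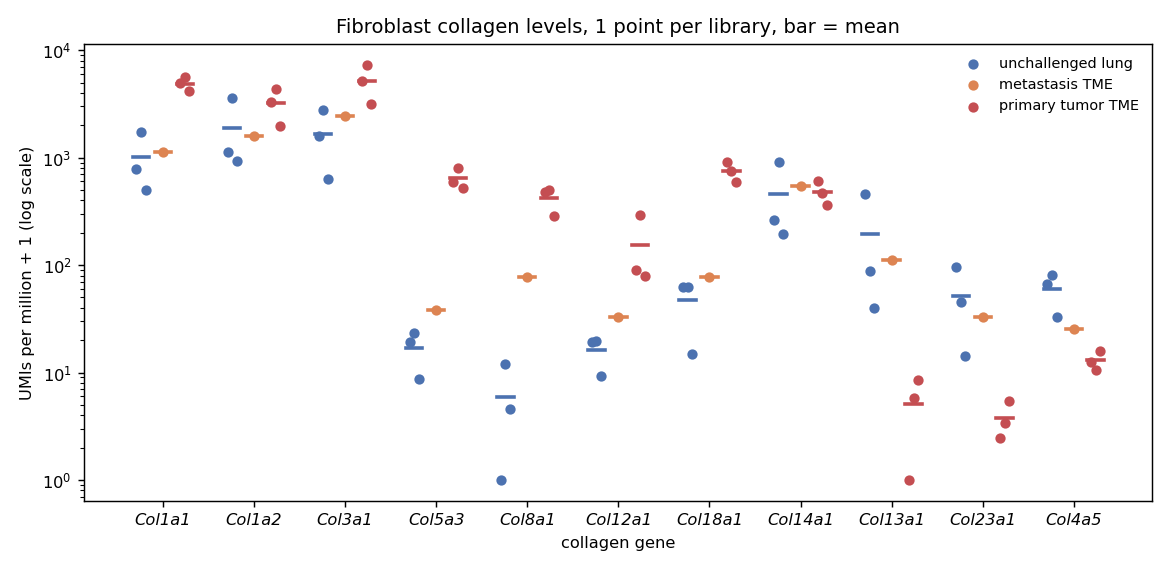
Level of 11 collagen genes in fibroblasts, 1 point per library, on a log axis of CPM + 1, with bars at the mean of unchallenged lung (3 libraries), metastasis TME (1) and primary tumor TME (3). Col5a3, Col8a1 and Col18a1 are higher in all primary tumor points than in all lung points, Col13a1, Col23a1 and Col4a5 lower, and Col14a1 overlaps.

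The fibroblast counts rested on few libraries. Leaving out primary tumor library 4, 5 or 6 reduced the 16 called genes to 6, 5 or 6 (2.75, 1.76 or 1.61% of all genes called). Leaving out lung library 4, 5 or 6 gave 13, 13 or 16 (9.85, 8.38 or 15.5% of all genes). Col8a1, Col28a1, Col5a3, Col18a1 and Col12a1 passed in all 6 of these fits and Col11a1 in 5, and the other 10 passed only where all primary tumor libraries were kept. The fibroblasts compared also fell mostly in different clusters. Most primary tumor fibroblasts were in subclusters led by Ccl11, Lum and Cthrc1 (1598 cells, 0 to 80.1% of a library), by Tnc, Fbn2 and Inhba (495 cells, 18.3 to 71.2%) and by Apod (61 cells), and lung fibroblasts in 6 others. Of these 6, the one led by Clec3b and Scara5 held 131 lung cells (1.60 to 65.1% of a library) and also 19 primary tumor cells (0.152 to 15.4%), with 115703 of the 419477 fibroblast UMIs of primary tumor library 5. The 13 fibroblast markers summed to 8325 to 19186 CPM in the primary tumor and 17093 to 70429 in lung. The pericyte list of 11 genes summed to 907 to 1354 in primary tumor fibroblasts, with 10 or 11 detected, and 157 to 542 in lung fibroblasts, with 6 to 11. The melanoma list of 10 genes summed to 672 to 5576 against 18.8 to 32.2. Markers of lung and blood cells ran the other way, and most were highest in lung library 6. In primary tumor and lung fibroblasts, the AT-2 list of 6 genes summed to 0 to 6.46 and 87.6 to 1450, the club list of 5 to 0 to 11.1 and 29.2 to 3108, the ciliated list of 6 to 40.7 to 117 and 73.0 to 1359, the macrophage list of 9 to 4.77 to 968 and 120 to 7886, and the neutrophil list of 5 to 5.57 to 41.7 and 3.65 to 6232. The part of these cells in the collagen differences was not tested. Without lung library 6, 16 genes were again called, where 15.5% of all genes were.

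Within the primary tumor, the subclusters differed in collagen. The one led by Tnc, Fbn2 and Inhba gave 2.20, 3.26 and 2.32% of its UMIs to collagen in libraries 4, 5 and 6, and that led by Ccl11 and Lum gave 0.83% in library 6. The highest share, 5.61 and 6.46% in libraries 5 and 6, was found in the subcluster described apart (Fbn1, Cilp, Postn), which raised 11 of 13 fibroblast markers. There Col3a1 reached 22275 and 24021 CPM, Col1a1 13149 and 17905, and Col12a1 1049 and 633. Col15a1 and Col18a1 ran the other way, with 93.6 and 147 for Col15a1 in that subcluster and 1189 and 710 in the Tnc subcluster of the same libraries. These are descriptions of clusters, with no test.

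Metastasis fibroblasts came from 1 library with at least 20 cells, so the folds below are given with no p. Against primary tumor fibroblasts, 20 of 26 members differed by over 2-fold, 4 higher and 16 lower, where 34.1% of all genes did (13.7% higher, 20.3% lower). Against lung fibroblasts, 11 of 26 did, 8 higher and 3 lower, where 34.8% of all genes did (10.6% higher, 24.1% lower). The median log2 difference of the members was -1.42 against the primary tumor and 0.54 against lung, and over all genes -0.07 and -0.22. Col5a3 was at 37.0 CPM in metastasis (log2 difference -4.10 from the primary tumor and 1.35 from lung), and Col18a1 at 76.5 (-3.29 from the primary tumor). Over 10 other settings of the processing, the difference from the primary tumor ranged from -4.59 to -0.756 for Col5a3 and from -3.69 to -0.415 for Col18a1. Col8a1 at 76.5 (-2.45) lay between both tissues, 3.83 above lung. Col1a1 at 1118 was 2.12 below the primary tumor and inside the lung range. Over those 10 settings its difference from the primary tumor ranged from -2.81 to -0.311. Col13a1 at 111 was 4.42 above the primary tumor and inside the lung range, and Col23a1 at 32.1 was 3.23 above it. Over 2-fold below the primary tumor were also Col11a1, Col15a1, Col28a1, Col6a3, Col12a1, Col5a2, Col16a1, Col5a1, Col4a2, Col4a1 and Col3a1, by 1.07 to 4.04 on the log2 scale. With mesothelial-like cells counted as fibroblasts, Col3a1 (0.281) and Col5a2 (0.00513) turned. Over the 10 settings Col6a3 reached -0.179 and Col12a1 -0.272, while Col11a1 and Col28a1 stayed past 2-fold in all. In the main fit Col4a6 was past 2-fold with both groups under the limit of a count of 0, so no fold is given, and Col17a1 (3.11) and Col4a4 (1.5) were higher. Above lung were also Col28a1 (3.69), Col4a2 (1.57), Col15a1 (1.29), Col12a1 (1.27) and Col4a1 (1.11), and Col11a1, which was under that limit in both. Below lung were Col4a5 (-1.18), Col4a4 (-1.28) and Col4a6, at least 1.83-fold lower. Leaving out 1 primary tumor library gave 19 to 23 members past 2-fold (33.8 to 34.5% of all genes). Without lung library 4, 5 or 6 there were 12, 15 or 8 against lung (36.2, 38.2 or 29.7% of all genes).

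These metastasis fibroblasts were mostly of clusters also found in lung. A subcluster led by Mfap4, C7 and Scube2 held 63 of the 100 cells and another, led by Clec3b and Scara5, held 20. In the former, which lung libraries 4, 5 and 6 also had, collagen was 0.535% of UMIs in metastasis and 0.607, 0.818 and 0.834% in lung. Col13a1 there was at 229 CPM in metastasis and 586, 320 and 353 in lung. With libraries of at least 10 cells allowed, metastasis library 6 (11 cells) came in, and 14 of 24 members were past 2-fold against the primary tumor (25.7% of all genes) and 16 against lung (24.8%). In that fit with 2 metastasis libraries edgeR called none at an adjusted p below 0.05 in either comparison, with 9 and 11 members at an unadjusted p below 0.05. The share of all genes below that unadjusted limit was not counted, so these counts are not read as a result about collagen genes. Pericyte-like and smooth muscle-like cells were also counted as fibroblasts, which again brought in metastasis library 6. Then 9 of 27 members, in place of 20, were past 2-fold against the primary tumor (20.1% of all genes). Against lung 21 of 27 were, in place of 11 (26.1% of all genes). Again none was called by edgeR, with 5 and 15 at an unadjusted p below 0.05, where all genes were again not counted. The added cells and the added library cannot be told apart. The mesothelial-like subcluster, led by Upk3b, Wt1, Gpm6a and Msln with Saa3 and Lgals7 among its 10 leading genes, held 242 metastasis TME cells and raised 10 of the 13 fibroblast markers as well as 8 of 8 mesothelial ones. With its cells counted as fibroblasts, an alternative chosen after seeing the data, metastasis libraries 5 and 6 were both in. Past 2-fold were 17 of 28 members against the primary tumor (19.4% of all genes) and 23 against lung (27.0%). In that fit edgeR called 5 against the primary tumor (1.92% of all genes), namely Col8a1 (log2 change -3.42, adjusted p = 0.0297), Col28a1 (-4.57, adjusted p = 0.0318), Col4a5 (2.72, adjusted p = 0.0270), Col4a6 (3.52, adjusted p = 0.0494) and Col6a5 (adjusted p = 0.0127). Against lung it called Col6a5 (adjusted p = 0.0291) and Col24a1 (adjusted p = 0.0122; 1.64% of all genes), both higher in metastasis and given with no fold because the other groups were at or near 0. The melanoma list summed to 4661 CPM in metastasis fibroblasts with all 10 genes detected, and its part was not tested.

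Endothelium was compared with 4 libraries in each tissue. All 10 collagen genes that passed the filter on low counts were higher in the primary tumor than in unchallenged lung, where 26.7% of the 8917 genes tested were called and 13.3% higher. The filter keeps genes that are high in at least 1 group, so 10 of 10 is a count of these genes and not of all members. The median log2 change was 4.96. In metastasis, 5 of the 10 were higher than in lung (2.88% of all genes called, 2.55% higher and 0.336% lower), and 4 were lower than in the primary tumor (10.7% called, 4.68% lower and 6.01% higher). The type IV pair and the multiplexins carried most of these UMIs. The 3 comparisons share libraries, so they are not independent of each other.

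Col4a1 had 2321, 2916, 2902 and 4419 CPM in endothelium of primary tumor libraries 1-3, 4, 5 and 6, 1226, 792, 2354 and 2086 in metastasis libraries 1-3, 4, 5 and 6, and 605, 595, 428 and 475 in lung libraries 1, 4, 5 and 6. Metastasis lay above every lung library, and metastasis library 5 was just above primary tumor library 1-3. The log2 change was 2.68 for the primary tumor against lung (SE 0.37, adjusted p = 9.90e-05), 1.69 for metastasis against lung (SE 0.36, adjusted p = 0.0180) and -0.99 for metastasis against the primary tumor (adjusted p = 0.0943). Col4a2, its partner, had 1274, 1584, 1753 and 2811 in the primary tumor, 398, 506, 1374 and 1115 in metastasis and 279, 244, 145 and 143 in lung. It followed the same order, with 3.29 (SE 0.45, adjusted p = 8.42e-05), 2.15 (SE 0.43, adjusted p = 0.0118) and -1.14 (adjusted p = 0.102).

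Col18a1 had 380, 768, 788 and 879 CPM in the primary tumor, 6.32, 18.0, 151 and 149 in metastasis and 5.28, 1.57, 13.6 and 2.68 in lung. Metastasis libraries 5 and 6 stood well above libraries 1-3 and 4, and library 1-3 was within the lung range. Primary tumor exceeded lung by 6.92 (SE 0.83, adjusted p = 3.21e-05) and metastasis exceeded lung by 3.93 (SE 0.76, adjusted p = 0.0105). Metastasis was below the primary tumor by -2.98 (SE 0.68, adjusted p = 0.00998). Col15a1 had 186, 181, 269 and 318 in the primary tumor, 19.0, 3.60, 73.0 and 33.2 in metastasis and 4.32, 4.52, 6.19 and 9.37 in lung. Only metastasis library 4 was not above lung, and it lay just below its range. The 3 changes were 5.52 (SE 0.57, adjusted p = 1.09e-05), 2.86 (SE 0.56, adjusted p = 0.0108) and -2.66 (SE 0.49, adjusted p = 0.00275).

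Col13a1 had the largest log2 change of the 10 genes between primary tumor and lung endothelium, a size that rests on few or no UMIs in lung. It had 38.0, 82.8, 121 and 129 CPM in the primary tumor, 0, 3.60, 6.12 and 4.53 in metastasis and 1.92, 0.174, 0 and 1.34 in lung. The primary tumor stood apart from both, by 7.47 from lung (SE 0.61, adjusted p = 2.03e-06), and metastasis was below it by -4.28 (SE 0.54, adjusted p = 0.000199). The change of 3.18 between metastasis and lung (adjusted p = 0.0499) rests on levels of a few UMIs. Col5a2 had 127, 143, 133 and 113 in the primary tumor, 31.6, 43.2, 48.6 and 89.0 in metastasis and 39.8, 26.8, 55.7 and 44.2 in lung. Metastasis and lung overlapped (0.49, adjusted p = 0.408), and the primary tumor was above lung by 1.74 (SE 0.28, adjusted p = 0.000326) and above metastasis by the reverse of -1.25 (SE 0.29, adjusted p = 0.0119). Col8a1, at 29.3 to 63.3 in the primary tumor, 1.80 to 18.1 in metastasis and 0.348 to 10.9 in lung, rose by 3.51 against lung (SE 0.70, adjusted p = 0.00174).

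Fibrillar chains were low in endothelium and varied between libraries. Col3a1 had 33.8, 22.9, 230 and 340 CPM in the primary tumor, 0, 0, 67.3 and 168 in metastasis and 0.959, 1.22, 7.92 and 8.03 in lung. Col1a1 had 12.7, 21.6, 91.2 and 223, then 0, 0, 32.6 and 27.2, then 2.40, 0, 1.24 and 4.01 in the same order. Col1a2 ranged from 12.7 to 146 in the primary tumor, 1.80 to 39.2 in metastasis and 0.870 to 6.69 in lung. Libraries 5 and 6, both of run 3, held the high values of both tumor sites, and the part of the run was not tested. Primary tumor exceeded lung by 6.35 for Col1a1 (SE 1.05, adjusted p = 0.000407), 5.43 for Col3a1 (SE 1.14, adjusted p = 0.00241) and 4.50 for Col1a2 (SE 0.83, adjusted p = 0.000914). The changes in metastasis against lung, 4.14, 4.11 and 2.93, did not pass (adjusted p = 0.0664, 0.0705 and 0.0977), nor did those against the primary tumor, -2.21, -1.33 and -1.57 (adjusted p = 0.112, 0.460 and 0.228), in the fit without a replicate block. Leukocytes reached 54.8 CPM of Col3a1, 35.5 of Col1a1, 108 of Col4a1 and 23.1 of Col18a1. In the 10 libraries with both cell types, endothelium was above the leukocytes of its own library in 4 for Col3a1, 4 for Col1a1 and 7 for Col1a2, and in all 10 for Col4a1 and Col18a1. Primary tumor libraries 5 and 6, which had the highest fibrillar values, held too few leukocytes for this. Neutrophils alone reached 139 CPM of Col1a1 and 114 of Col3a1 in primary tumor library 4, above the endothelium of that library, and 106 of Col3a1 in metastasis library 5. The fibroblast list of 13 genes summed to 937 to 1739 in endothelium of the primary tumor (7 to 12 detected, Inmt at 0 in all 4 libraries), 139 to 1114 in metastasis (5 to 13) and 76.4 to 884 in lung (9 to 13). The melanoma list of 10 genes summed to 251 to 1354, 508 to 8049 and 5.94 to 15.8 (3 to 7 detected in lung, Tyrp1, Mlana and Tyr at 0 in all lung libraries). Their part in the endothelial differences was not tested.

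**Figure D4:**
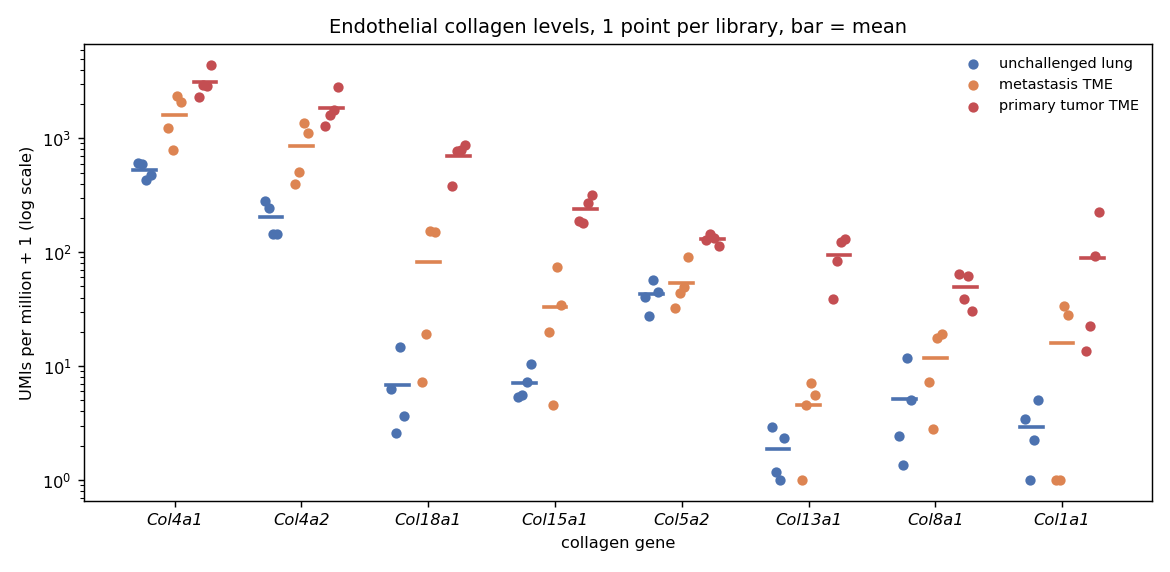
Level of 8 collagen genes in endothelium, 1 point per library (4 in each tissue), on a log axis of CPM + 1, with bars at the mean. Primary tumor points lie above all lung points for each gene shown, and metastasis points lie between or with lung, except that metastasis points overlap the primary tumor for Col4a1, Col4a2 and Col1a1.

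All 10 genes stayed called between primary tumor and lung when any 1 of the 8 libraries was left out (19.9 to 24.8% of all genes called). The metastasis counts were less stable. Without metastasis library 5 none of 12 tested members was called against lung by edgeR, where 0.763% of all genes were. An unadjusted p below 0.05 was reached by 9 members, and the share of all genes below that limit was not counted. Without metastasis library 4 there were 9 (7.34% of all genes) and without metastasis library 6 there were 3 (1.95%). Without lung library 6 there were 3 (2.25%). Col13a1 passed in 3 and Col4a1 in 4 of the 8 fits, and Col18a1, Col15a1 and Col4a2 in 7. DESeq2 called 5 members on all libraries, and the share of all genes that it called is not given here. The 4 genes lower in metastasis than in the primary tumor passed in all 8 fits (7.02 to 14.6% of all genes called).

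Since libraries 1-3, 5 and 6 of both tumor sites share mice by the names used, while library 4 does not, the fit was also made with the replicate number as a block. It called 8 of the 10 genes lower in metastasis than in the primary tumor in place of 4 (10.5% of all genes called, 4.87% lower). The 4 added were Col1a1 (log2 change -2.33, adjusted p = 0.0212 by edgeR), Col1a2 (-1.69, adjusted p = 0.00453), Col3a1 (-1.71, adjusted p = 0.0200) and Col8a1 (-2.26, adjusted p = 0.0346). Col4a1 (-1.04, adjusted p = 0.0840) and Col4a2 (-1.20, adjusted p = 0.104) still did not pass, although both were lower in metastasis in each of the 4 same-numbered pairs. Against lung, whose mice are different ones, Col1a1 (3.39, adjusted p = 0.0378), Col1a2 (2.37, adjusted p = 0.00381) and Col3a1 (3.22, adjusted p = 0.00397) passed in the blocked fit by edgeR and Col13a1 (adjusted p = 0.126) did not.

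Endothelial clusters were also shared unequally. A cluster led by Slc6a2, Vwf and Selp, genes of veins and activated endothelium, held 87.8 to 100% of primary tumor endothelium, 10.7 to 62.9% in metastasis and 8.27 to 38.5% in lung. The rest of metastasis and lung fell mostly in a cluster led by Npr3 and Gpihbp1, the latter a protein of capillaries. Within the Vwf and Selp cluster alone, 9 of 11 collagen genes were higher in the primary tumor than in lung, 6 were higher in metastasis than in lung and 3 lower in metastasis than in the primary tumor. Over all 8363 genes tested in that cluster, 21.1, 8.79 and 4.28% were called in these comparisons, with 10.1% higher, 5.45% higher and 1.64% lower. In that cluster Col5a2 did not pass against lung (0.74, adjusted p = 0.0661 by edgeR) or against metastasis (-0.76, adjusted p = 0.262), and Col13a1 did not pass between metastasis and lung (adjusted p = 0.201), while Col1a1 (adjusted p = 0.0197) and Col3a1 (adjusted p = 0.0260) did. In that cluster Col4a1 had 398, 343, 233 and 339 CPM in the 4 lung libraries, 1526, 3044 and 2764 in metastasis libraries 4, 5 and 6 and 2472, 2916, 2902 and 4419 in the primary tumor. Col18a1 had 24.6, 11.1, 33.1 and 3.35, then 91.6, 202 and 230, then 407, 768, 788 and 879. In the Npr3 and Gpihbp1 cluster Col4a1 overlapped, at 905, 634, 631 and 996 in metastasis and 655, 622, 545 and 566 in lung. The capillary cluster described apart (Car4, Prx, Ednrb) gave 0.115 to 0.128% of its UMIs to collagen in lung and had Col12a1 at 83.3, 75.2, 120 and 80.6 in lung libraries 1, 4, 5 and 6, where the Npr3 and Gpihbp1 cluster had 1.19 to 8.91. In metastasis libraries 5 and 6 it had 31.0 and 13.2, against 0 and 19.7 in the Npr3 and Gpihbp1 cluster.

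The primary tumor against lung change was compared between fibroblasts and endothelium in 1 fit, with libraries 4, 5 and 6 of both tissues. Of 20 collagen genes with at least 20 UMIs in each cell type, 6 changed unequally, where 7.36% of 10274 genes were called. The difference, fibroblasts minus endothelium, was above 0 for 1 gene and below 0 for 5, against 2.59 and 4.77% of all genes. Col13a1 went in opposite directions, lower in tumor fibroblasts and higher in tumor endothelium, and differed by -14.49 on the log2 scale (SE 0.95, adjusted p = 8.24e-05). That size rests on few or no UMIs of Col13a1 in lung endothelium, and primary tumor fibroblast library 4 had none. So only its direction is read. Col23a1 differed by -6.86 (SE 0.84, adjusted p = 0.00125), with 3.82, 25.7 and 10.9 CPM in primary tumor endothelium and 1.22, 2.23 and 1.34 in lung endothelium of libraries 4, 5 and 6. Col4a5 differed by -5.69 (SE 0.68, adjusted p = 0.00110), with 17.8, 12.8 and 10.9 against 0.522, 2.97 and 0 in endothelium. Col23a1, Col4a5 and Col6a2 had not passed the filter on low counts in endothelium alone and entered this fit through fibroblasts, and their endothelium was above the leukocytes of its own library in 6, 6 and 4 of 10 libraries. For Col13a1, Col23a1 and Col4a5, fibroblast values were lower and endothelial values higher in each primary tumor library than in the lung library of the same number. Col6a2 differed by -4.50 (SE 0.98, adjusted p = 0.0199), with 6.37, 12.8 and 20.1 against 0.348, 0.248 and 1.34 in endothelium. Col18a1 changed more in endothelium by the reverse of -3.42 (SE 0.70, adjusted p = 0.0143), and Col8a1 more in fibroblasts by 3.26 (SE 0.49, adjusted p = 0.00342). Leaving out each of the 6 libraries kept the call for Col13a1, Col23a1 and Col4a5 in all 6 fits, for Col8a1 in 5, for Col18a1 in 4 and for Col6a2 in 3.

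**Figure D5:**
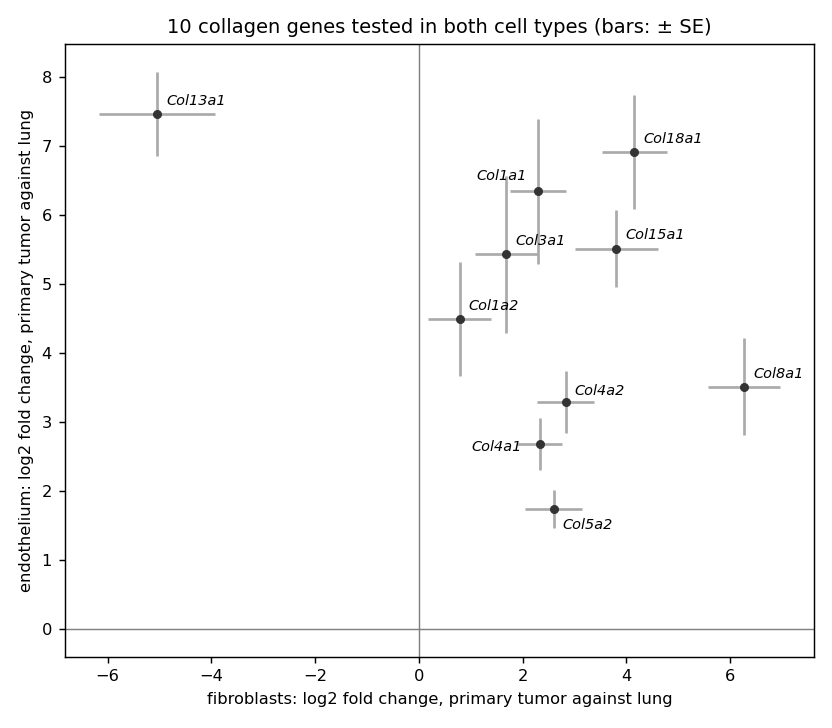
Log2 change of the primary tumor against unchallenged lung for the 10 collagen genes tested in both cell types, fibroblasts on the x axis and endothelium on the y axis, with bars of 1 SE. Col13a1 alone lies left of 0 on the fibroblast axis, at -5.05 against 7.47 in endothelium, while Col8a1 lies farthest right at 6.28.

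Pericyte-like cells carried the highest levels of Col4a1 and Col4a2, while Col4a3 to Col4a6 had 0 to 15.1 CPM there. They came from 3 libraries, and no test was made because metastasis had 1. Of 17 members, 6 were over 2-fold higher in the primary tumor than in metastasis and none lower, where 26.1% of genes passed that limit (17.1% higher, 9.0% lower). Col4a1 had 6257 and 8223 CPM in primary tumor libraries 4 and 6 and 3777 in metastasis library 5, a log2 difference of 1.04. Col4a2 had 3008 and 4096 against 2069. Col3a1 showed the widest gap, 4083 and 5263 against 1280 (1.97). Of the fibril-forming minor chains, Col5a1 had 710 and 1272 against 329 (1.68) and Col5a3 1147 and 1484 against 534 (1.40). Col16a1, with 99.1 and 144 against 37.3 (1.75), and Col6a3, with 1929 and 2688 against 1106 (1.16), completed the 6. Below 2-fold were Col1a1 (3781 and 8753 against 3392), Col1a2 (2922 and 4278 against 2056), Col18a1 (1128 and 1431 against 932), Col15a1 (721 and 1265 against 553), Col6a1 (1161 and 1189 against 702) and Col5a2 (1081 and 1204 against 727). Col14a1 went the other way, with 154 and 189 against 273 in metastasis. In 16 of the 17 genes that passed the filter the metastasis library was the lowest, and the median log2 difference of the 17 was 0.94. The share of all genes with this order was not counted, and 1 metastasis library sets the order of all 17. So the order is not read as a result about collagen genes. Each library had 21 to 55 pericyte-like cells.

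Melanoma cells were compared between metastasis and primary tumor (2 MM libraries each). Without a replicate block, by edgeR none of 28 members tested was called, and 0.00698% of 14323 genes were called. An unadjusted p below 0.05 was reached by 6 members, and the share of all genes below that limit was not counted. DESeq2 also called none of the 22 members it tested. Col4a1 led in both sites, with 270 and 217 CPM in metastasis libraries 4 and 5 and 221 and 379 in primary tumor libraries 4 and 5. Col4a2 had 228 and 157 against 131 and 268, and Col18a1 115 and 53.1 against 64.4 and 82.5. Both genes overlapped between the sites. Col16a1 had 68.5 and 50.1 against 60.0 and 111, Col5a2 76.5 and 61.5 against 33.7 and 72.2, and Col4a5 89.1 and 39.1 against 63.0 and 49.3. Col11a1, Col5a1, Col5a3 and Col10a1, the last a short-chain collagen of growth plate cartilage, ranged from 10.2 to 40.6 over the 4 libraries. Col2a1, the main fibril chain of cartilage, had 14 and 3.69 in metastasis and 20.6 and 34.4 in the primary tumor. It did not overlap but missed the threshold (log2 change -1.97, SE 0.54, adjusted p = 0.57 by edgeR). With the replicate number as a block it was the 1 member called, lower in metastasis (-2.16, SE 0.38, adjusted p = 9.76e-06 by edgeR; 0.796% of all genes called, 0.468% lower), in a fit with 1 residual degree of freedom among libraries, where library 5 of both sites shares mice and library 4 does not. With 1 library left out, where the lone library of a site is taken to vary like the others, Col2a1 was called, lower in metastasis, without metastasis library 4 or primary tumor library 4, and Col8a1, higher in metastasis, without metastasis library 5. Type I collagen was near absent, with at most 8 UMIs of Col1a1 in each MM library. The 2110 melanoma cells of metastasis TME library 5, which were not part of this comparison, had 156 UMIs, or 8.77 CPM.

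In epithelium, type IV chains also led, at lower levels. Col4a1 had 135, 123 and 74.5 CPM in metastasis libraries 1-3, 5 and 6 and 73.7, 70.5 and 55.5 in lung libraries 1, 5 and 6. Col4a2 had 32.1, 89.8 and 43.7 against 56.7, 40.9 and 23.8. Leukocytes of the same libraries had 9.38, 108 and 33.3 CPM of Col4a1 in metastasis and 5.03, 15.9 and 45.2 in lung, and 5.18, 61.6 and 31.8 of Col4a2 in metastasis and 4.31, 6.13 and 17.6 in lung. Epithelium was above the leukocytes of its own library in all 6 for both genes, narrowly in metastasis library 5 and lung library 6. Neutrophils alone had 119 CPM of Col4a1 and 106 of Col4a2 in metastasis library 5, near and above the epithelium of that library. In the other epithelial libraries neutrophils were below epithelium for both genes. Col8a2, a chain of the corneal short-chain network, was at 19.3 to 55.8 in epithelium and at 41.0 to 91.7 in ciliated cells. Col4a5 had 17.9 to 35.6 in metastasis and 12.7 to 22.7 in lung, and Col6a1 21.0 to 77.0 and 8.23 to 28.3. Col6a1 reached 84.3 and 29.0 in AT-2 cells, the surfactant-making cells of the alveolus, of lung libraries 5 and 6, and 111 in those of metastasis library 5. Col17a1, the epithelial anchor protein, was seen in metastasis library 6 at 56.7 and at no more than 1.20 in the other epithelial libraries. No test was made in epithelium.

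In metastasis, mesothelial-like cells had type I and III collagen chains at levels near those of primary tumor fibroblasts. Col3a1 had 4416 and 8862 CPM in metastasis libraries 5 and 6 and 505 in lung library 6. Col1a1 had 2646 and 5869 against 50.5, and Col1a2 2872 and 5442 against 80.7. Each metastasis value was far above the only lung library, which had 49 such cells. Col5a2 (744 and 1288 against 50.5), Col4a1 (905 and 1186 against 80.7), Col4a2 (507 and 680 against 60.5), Col6a1 (522 and 680 against 131), Col6a2 (410 and 466 against 141) and Col5a1 (260 and 564 against 30.3) had the same order, while Col14a1 (112 and 121 against 172) and Col4a4 (7.70 and 24.3 against 202) had the reverse. Col5a3 (37.5 and 126) and Col11a1 (15.4 and 38.9) had no UMI in the lung library, and Col5a3 was far below its level in primary tumor fibroblasts. Rarer chains were highest in these cells, namely Col6a5 (93.4 and 82.6), Col24a1 (42.4 and 117) and Col27a1 (41.4 and 131). All 3 had no UMI in the lung library. At the depth of that library 3 UMIs would be 30.3 CPM, so having no UMI is not read as absence. Col11a1 lay below this limit in metastasis library 5 and little above it in library 6. Col5a3, Col24a1 and Col27a1 lay little above it in metastasis library 5 and further above it in library 6. Col6a5 was well above it in both. Smooth muscle-like cells of metastasis library 5 had 1297 Col3a1, 1165 Col1a2, 1086 Col1a1 and 654 Col4a1 CPM.

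Chains that share a helix did not keep 1 ratio across tissues. In fibroblasts, the UMIs of Col1a1 over those of Col1a2 gave 1.51, 1.29 and 2.08 in primary tumor libraries 4, 5 and 6 and 0.699, 0.49 and 0.536 in lung libraries 4, 5 and 6. Metastasis library 5, at 0.697, fell with lung. In pericyte-like cells this ratio was 1.65 in metastasis and 1.29 and 2.05 in the primary tumor. The ratio of Col4a1 to Col4a2 was 1.68, 1.65 and 1.63 in primary tumor fibroblasts, 1.77, 2.84 and 3.13 in lung fibroblasts, 1.57 to 1.84 in primary tumor endothelium and 2.17 to 3.32 in lung endothelium. So the neighbors read from the shared stretch above did not stay at 1 ratio, and lung values were higher in both cell types. Col6a3 over Col6a1 was 1.60, 1.42 and 2.10 in primary tumor fibroblasts, 1.40, 0.708 and 0.797 in lung and 0.503 in metastasis. Col5a1 over Col5a2 was 0.464 to 0.707 in primary tumor fibroblasts and 0.565 to 1.00 in lung, and Col6a1 over Col6a2 1.35 to 1.81 and 0.943 to 1.60. Col15a1 over Col18a1 was 0.815 to 1.04 in primary tumor fibroblasts and 0.235 to 0.489 in primary tumor endothelium. In the primary tumor the 2 multiplexins were thus near balance in fibroblasts, and Col18a1 led in endothelium. Over the 6 fibroblast libraries of all tissues with enough UMIs, the ratio had a median of 1.29 and reached 2.0. These ratios are descriptions, since capture at the 3' end can differ between chains.

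Genes that modify, cleave and cross-link collagen were counted beside the chains, from a list chosen with earlier results of these data known. In fibroblasts, 6 of 18 hydroxylation and chaperone genes were higher in the primary tumor than in lung and none lower by edgeR (adjusted p below 0.05; 10.4% of all genes). They were the prolyl hydroxylases P3h1 (log2 change 2.53), P4ha1 (2.16) and P4ha2 (2.95), the lysyl hydroxylases Plod1 (2.01) and Plod3 (1.57), and the chaperone Fkbp10 (1.85). Of 5 propeptide genes, the protease Adamts14 rose (2.79) and the enhancer Pcolce2 fell by 6.31 on the log2 scale. Of 4 cross-linking genes Loxl2 rose (2.32), and of 5 collagen receptor genes none passed. Over all 32 genes of these lists 8 rose and 1 fell. In endothelium, 6 of 17 hydroxylation and chaperone genes were higher in the primary tumor than in lung (26.7% of all genes called, 13.3% higher), namely P3h2 (4.53), Fkbp10 (2.99), P3h3 (2.47), Plod1 (2.41), the collagen chaperone Serpinh1 (1.24) and Plod3 (0.61). Pcolce (4.65), Bmp1 (1.87) and Loxl2 (1.59) also rose, and Itga1, a receptor chain for collagen, fell by 2.99. Over all 24 genes 9 rose and 1 fell. In metastasis against lung, where 2.88% of all genes were called, Plod1 (1.73), Fkbp10 (1.71), P3h2 (4.01) and Pcolce (3.89) were higher in endothelium. Against the primary tumor, where 10.7% were called, P3h3 (-1.71), Fkbp10 (-1.28) and Bmp1 (-1.15) were lower and Itga1 (2.09) was higher.

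Of the 44 members, 33 reached a mean of 20 CPM in at least 1 named or unnamed cell type, and 35 passed the filter on low counts of at least 1 comparison. The 11 that stayed below 20 were Col4a3, Col9a1, Col9a2, Col9a3, Col11a2, Col17a1, Col19a1, Col20a1, Col22a1, Col25a1 and Col26a1. Of these, Col9a3, a cartilage FACIT chain, had the highest mean, 19.1 in melanoma cells, and Col17a1 followed with 18.9 in epithelium. Col19a1 was the rarest, with 4 UMIs in all cells. The 9 that passed no filter of these comparisons were tested in none of them, though Col6a5 and Col24a1 were tested in the fit with mesothelial-like cells counted as fibroblasts: Col4a3, Col6a4, Col6a5, Col6a6, Col8a2, Col19a1, Col22a1, Col24a1 and Col26a1.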

How the data were processed

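The authors deposited a table of counts, the UMIs of each gene in each cell, aligned to GRCm38 by Cell Ranger 6.1.1, with cells outside their quantile limits removed. A second deposited table, of normalized values, was not used. Identical libraries were merged. Cells were clustered with Seurat 5.3.0 (2000 variable genes, 1978 after the collagen genes were left out, 17 principal components, 20 neighbors, resolution 0.5; 12 components for mesenchymal cells). A cluster was named when it raised at least 4 markers of a type 2-fold over all other cells in at least 10% of its cells, a limit set with the clusters in view. Raw counts were summed per library and type with at least 20 cells and tested with edgeR 4.0.16 (filterByExpr, TMM, quasi-likelihood F test, the 3 tissues in a single fit, Benjamini-Hochberg over all genes, adjusted p below 0.05), checked on simulated data. In the simulated data the fibroblast fit recovered 0 of 59 true 2-fold, 16 of 63 4-fold and 42 of 57 16-fold changes. Of its 67 calls, 9 were of unchanged genes. With 1 library in a group, over 2-fold was counted and no p given. DESeq2 1.42.0 was an alternative. In each cell type, members with a mean of at least 20 CPM (up to 12), those that passed and the 5 highest that did not were named. Members and lists were chosen with earlier results of these data known.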

Additional observations from a re-analysis of the deposited data

Results flagged for a closer look

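Of 35 groups of 4 libraries looked at for a library far from the others, 1 had one, and about 1 in 20 such groups would by chance. In leukocytes of unchallenged lung, library 6 gave 0.0142% of its UMIs to collagen, and the group median was 0.00526%. The primary tumor against lung change differed between fibroblasts and endothelium for 6 collagen genes by edgeR's quasi-likelihood test with Benjamini-Hochberg adjustment. The difference, fibroblasts minus endothelium on the log2 scale, was -14.49 for Col13a1 (adjusted p = 8.24e-05), -6.86 for Col23a1 (adjusted p = 0.00125), -5.69 for Col4a5 (adjusted p = 0.00110), -4.50 for Col6a2 (adjusted p = 0.0199), -3.42 for Col18a1 (adjusted p = 0.0143) and 3.26 for Col8a1 (adjusted p = 0.00342). The size for Col13a1 rests on few or no UMIs in lung endothelium, so only its direction is read.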

How the results depend on the processing

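Counts of called collagen genes stayed within 1.5 times, outside the settings named here, with DESeq2, its size factors, collagen genes in the clustering, other cell and depth limits and the clusters described apart left in. Without the low-count filter, metastasis fibroblasts had 35 of 42 members past 2-fold against the primary tumor (48.7% of all genes) and 17 of 42 against lung (49.5%). In endothelium 13 of 40 were called for metastasis against lung (3.31% of all genes) and 20 of 40 for primary tumor against lung (15.6%). Pericyte-like cells had 15 of 30 past 2-fold (49.4% of all genes), and in melanoma cells 1 of 39 was called (0.393%). With pericytes and smooth muscle left in, metastasis fibroblasts gave 9 against the primary tumor (20.1% of all genes) and 21 against lung (26.1%). With mesothelial cells left in, they gave 23 against lung (27.0% of all genes), an alternative chosen after seeing the data. The latter also turned Col3a1 (0.28), Col5a2 (0.00513) and Col4a6 (3.52) against the primary tumor, and Col4a6 (0.75) and Col4a5 (0.69) against lung. With pericytes left in, Col4a6 became 0.92. With a replicate block, endothelium of metastasis against primary tumor gave 8 in place of 4 (10.5% of all genes called). Melanoma cells gave 1 in place of 0 (0.796%). Primary tumor against lung fibroblasts gave 19 in place of 16, with Col3a1, Col6a1 and Col6a3 added, and the share of all genes is not given for that fit. Col4a4 of metastasis fibroblasts became -0.23. Deviations of same-numbered metastasis and primary tumor endothelium correlated by 0.15, -0.03, 0.19 and 0.15 for libraries 1-3, 4, 5 and 6, so the numbers did not pair every library. The best match had the same number in 11 of 24 comparisons in endothelium, which include lung from other mice, and in 3 of 6 in fibroblasts. Between metastasis and primary tumor endothelium, libraries 1-3, 5 and 6 matched best with their own number from either side, and library 4 did not. No paired analysis was possible in pericyte-like cells because the tissues shared no number. The collagen share of metastasis fibroblasts was 0.742% as a mean over cells, and that of metastasis pericyte-like cells 2.13% so and 1.98% with collagen genes in the clustering. The cause of these changes was not tested. With 1 library left out, counts ranged from 4 to 6, 0 to 9 and 10 to 11 in endothelium (metastasis against primary tumor, metastasis against lung, primary tumor against lung), 19 to 23, 8 to 15 and 5 to 16 in fibroblasts and 0 to 1 in melanoma cells. Shares ranged from 0.233 to 0.329%, 0.564 to 0.733% and 0.0788 to 0.0866% in endothelium of metastasis, primary tumor and lung, 1.97 to 2.63% and 0.489 to 0.914% in fibroblasts of primary tumor and lung, 0.0466 to 0.0582% and 0.0267 to 0.0302% in epithelium of metastasis and lung, 0.0692 to 0.109% and 0.0736 to 0.119% in melanoma cells of metastasis and primary tumor, and 2.99 to 4.32% in pericyte-like cells of the primary tumor. The fibroblast comparisons rest on 3 libraries in the primary tumor and in lung and 1 in metastasis. No lymphatic endothelial cluster was found, and leaving out mesothelial cells equals the values given.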

Other observations

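The 1732 cells that stayed unnamed were led by Ccn2, Bche, Saa3, Pcdh9, Cspg4 and Wnt4, a mix of genes of several cell types. Collagen was 0.207 and 0.272% of their UMIs in metastasis libraries and 0.208 to 0.457% in primary tumor libraries. Col16a1, a FACIT chain, had its highest mean over all types here, with 138 and 225 CPM in metastasis libraries 5 and 6 and 220, 487 and 155 in primary tumor libraries 4, 5 and 6. Col2a1, the cartilage fibril chain, had 31.9 and 258 in metastasis and 112, 233 and 34.5 in the primary tumor, where sorted melanoma cells had 3.69 to 34.4. Col4a5 had 84.4 and 140, then 125, 209 and 86.3. Col18a1 ranged from 144 to 333 and Col4a1 from 462 to 1068, with no clear difference by tissue, and Col1a1, at 20.2 to 197, was far below its level in fibroblasts. No test was made.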
